A study of Mus musculus with 6 samples.

Results

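The 37 genes described here encode proteins that copy DNA or divide the copied chromosomes. They were taken as a list of names: 14 act in DNA replication or at the entry to S phase, and 23 act in mitosis or mark dividing cells. Of these 37 genes, 24 had a row among the 13734 genes of the expression table, 7 for replication and 17 for mitosis, and all 24 were among the 10054 genes that were tested. The replication genes Mcm4, Mcm6, Pcna, Rrm1, Tyms, Ccne1 and Cdk2 are not analysed here. The mitosis genes Cdk1, Aurka, Plk1, Tpx2, Prc1 and Anln are not analysed here either.

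Poly(A) RNA was sequenced from 6 cultures of an immortalized mouse subcutaneous white preadipocyte line that carries Dicer1 flox/flox alleles and Cre-ERT2, a Cre recombinase that enters the nucleus when it binds 4-hydroxytamoxifen. The cultures were differentiated into adipocytes in a medium with insulin and rosiglitazone. On day 6 they received 10 µM 4-hydroxytamoxifen for 48 h, which deletes Dicer1 (DICER_KO, 3 libraries), or ethanol as vehicle (control, 3 libraries). All 6 cultures then received 10 µM isoproterenol, a beta-adrenergic agonist, for 6 h, so every value is from stimulated cells. All of them share 1 immortalized line. Exposure to 4-hydroxytamoxifen and deletion of Dicer1 cannot be told apart. The labels call the libraries biological replicates without saying that cultures were differentiated separately, so p-values measure only the spread between these libraries, which may be technical.

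A cell that enters S phase first loads the ring-shaped MCM helicase onto its origins and raises its supply of deoxyribonucleotides. E2F transcription factors, held in check by the retinoblastoma protein, switch on the genes for these steps. Mitosis genes peak later, in G2 and M phase, when kinesin motors, kinetochore proteins, cyclins and checkpoint kinases are needed, and their promoters often carry a CCAAT box and a cell cycle homology region (CHR). Terminally differentiated adipocytes do not divide, whereas preadipocytes do, and cultured lines pass through a burst of division early in differentiation. The comparison asks how these genes differ between DICER_KO and control cultures, and how replication genes compare with mitosis genes.

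The deleted gene was checked first. Dicer1, whose product cuts microRNA precursors into mature microRNAs, stood at 6.14, 6.09 and 6.14 log2 CPM in controls 1 to 3 and at 5.43, 5.47 and 5.49 in DICER_KO replicates 1 to 3. It fell to 0.633 of the control level (difference -0.66, SE 0.10, limma adjusted p = 0.0150). The adjusted p ran from 0.0568 to 0.147 when any library other than DICER_KO replicate 3 was left out, and was 0.000234 when that one was. Reads on the analysed genes ran from 17219155 to 17680469 per control library and from 13569034 to 30268077 per DICER_KO library. DICER_KO replicate 3 stood apart from the other two. The SD of its log2 differences over genes was 0.482 against replicate 1 and 0.457 against replicate 2, where replicates 1 and 2 differed by 0.261 and controls by 0.256 to 0.318. Each count of calls below is therefore given with and without it. Of 10 adipocyte markers all had a row, and their summed level was 12.41 to 12.72 log2 CPM in controls and 13.32, 13.33 and 11.48 in DICER_KO replicates 1 to 3. Summed markers of preadipocytes and fibroblasts (9 of 10 with a row) ran from 12.67 to 12.97 in controls and from 11.88 to 12.19 in DICER_KO. The collagens Col1a1 and Col3a1, by far its most abundant members, differed by -0.70 and -1.44. The surface marker Thy1 differed by -0.46 (limma adjusted p = 0.112, unadjusted p = 0.00211), with every DICER_KO library below every control. Other surface markers differed less: Pdgfra, Pdgfrb, Ly6a and Cd34 by -0.06, 0.02, -0.05 and -0.04 and Dlk1 by 0.29. Over all 8 tested genes of this list, 6 differences were negative. At an unadjusted limma p under 0.05, 3 were lower and 0 higher, beside 7.35% and 8.49% of all tested genes. Every DICER_KO library lay below every control for 3 of them, beside 9.81% of all tested genes. Summed markers of macrophages (4 of 7 with a row) ran from 5.04 to 5.24 in controls and from 5.26 to 5.29 in DICER_KO, and the defining markers Ptprc and Adgre1 are not analysed here. The 3 tested macrophage markers did not move together. With all 6 libraries 1 difference was positive (0.39) and 2 were negative (the lowest -0.17), and 0 were called. Endothelial markers (4 of 4) ran from 2.30 to 2.61 and from 2.66 to 3.03, with Cdh5 at 0 reads in at least 1 library. In that sum Tek differed by 0.67 and Kdr by -1.39, neither past the test.

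Across the 24 genes, replication genes tended to lie slightly lower and mitosis genes slightly higher in DICER_KO, and none passed the test with all 6 libraries. The median difference (DICER_KO minus control, log2 CPM) was -0.16 over the 7 replication genes and 0.17 over the 17 mitosis genes, beside 0.02 over all 10054 genes tested. Of the replication genes 2 differences were positive and 5 negative, and of the mitosis genes 15 were positive and 2 negative. With a smooth trend on GC content removed, described below, the replication genes were 1 positive and 6 negative, since Ccne2 turned. With all 6 libraries limma called 0 of 24 genes higher and 0 lower at an adjusted p under 0.05. It called 0.149% of all tested genes higher and 0.288% lower. At an unadjusted p under 0.05, 4 of the 24 were higher (Cenpf, Kif11, Cenpe and Top2a) and 0 were lower, beside 8.49% and 7.35% of all tested genes. The same unadjusted counts without DICER_KO replicate 3 were 3 higher and 3 lower, beside 20.1% and 14.9% of all tested genes. Without DICER_KO replicate 3, 1 gene was called higher (Cenpf) and 2 lower (E2f1 and Mcm5), where 12.5% of all tested genes were called higher and 7.22% lower. In bulk RNA, fewer dividing cells and less RNA per dividing cell cannot be told apart.

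**Figure D1:**
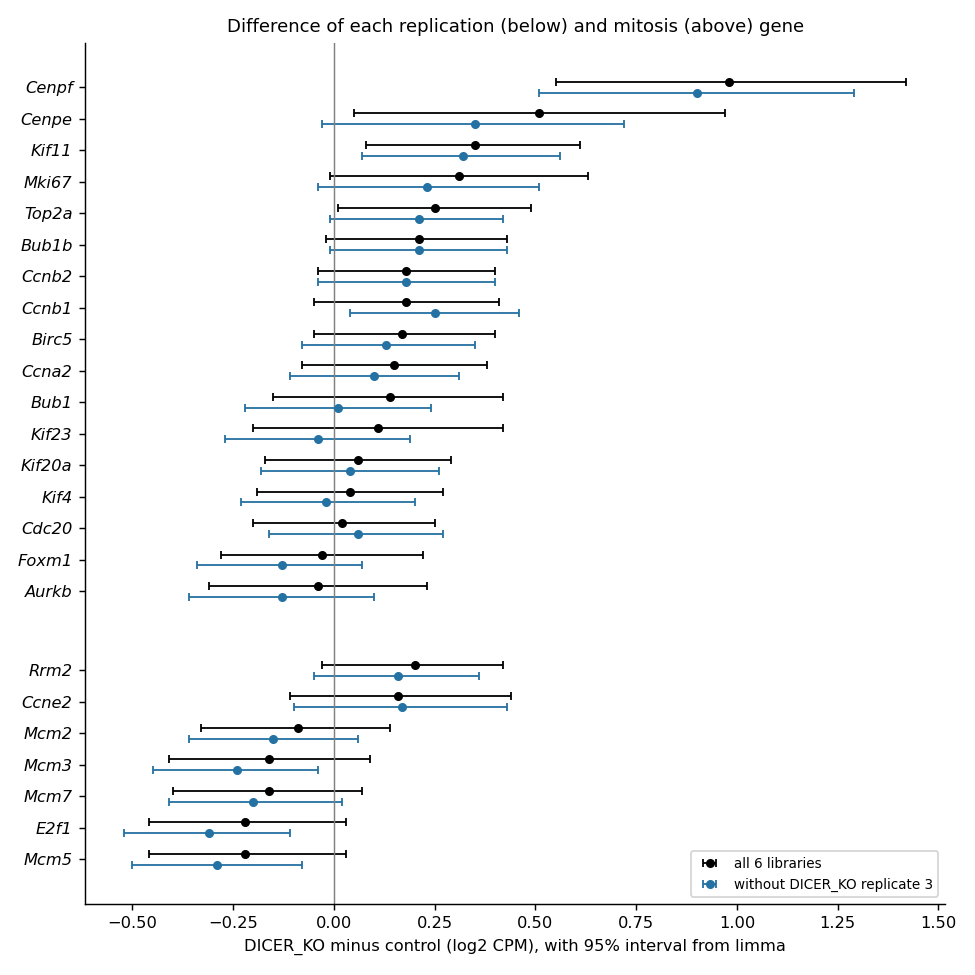
Difference between DICER_KO and control for each of the 24 genes (log2 CPM, points) with its 95% interval from limma (bars), with all 6 libraries in black and without DICER_KO replicate 3 in blue. Cenpf lies farthest to the right at 0.98. The replication genes Mcm2, Mcm3, Mcm5, Mcm7 and E2f1 lie left of 0 in both fits. So do the mitosis genes Aurkb (-0.04 with all 6 libraries) and Foxm1 (-0.03).

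The levels show that dividing-cell transcripts were present in every library. Each of the 24 genes had at least 338 reads in each library. Scaled to transcript length, the control level was highest for Mcm3 at 7.10 log2 CPM per kb, followed by Rrm2 at 6.94, Mcm7 at 6.92, Mcm2 at 6.73 and Mcm5 at 6.47. The mitosis genes were lower per kb than these: Top2a led at 6.11, Cdc20, Aurkb and Mki67 stood at 5.39, 5.24 and 4.83, and Cenpe and Cenpf were lowest at 2.19 and 0.84. The replication genes E2f1 and Ccne2 lay within the range of the mitosis genes, at 5.36 and 3.74. The SD of a gene between the 3 controls ran from 0.01 (Birc5) to 0.41 (Cenpf), more than the step between many neighbours in this order. The annotated transcript of Cenpf is 11130 bases long and that of Mki67 10061 bases, the longest of the 24.

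**Figure D2:**
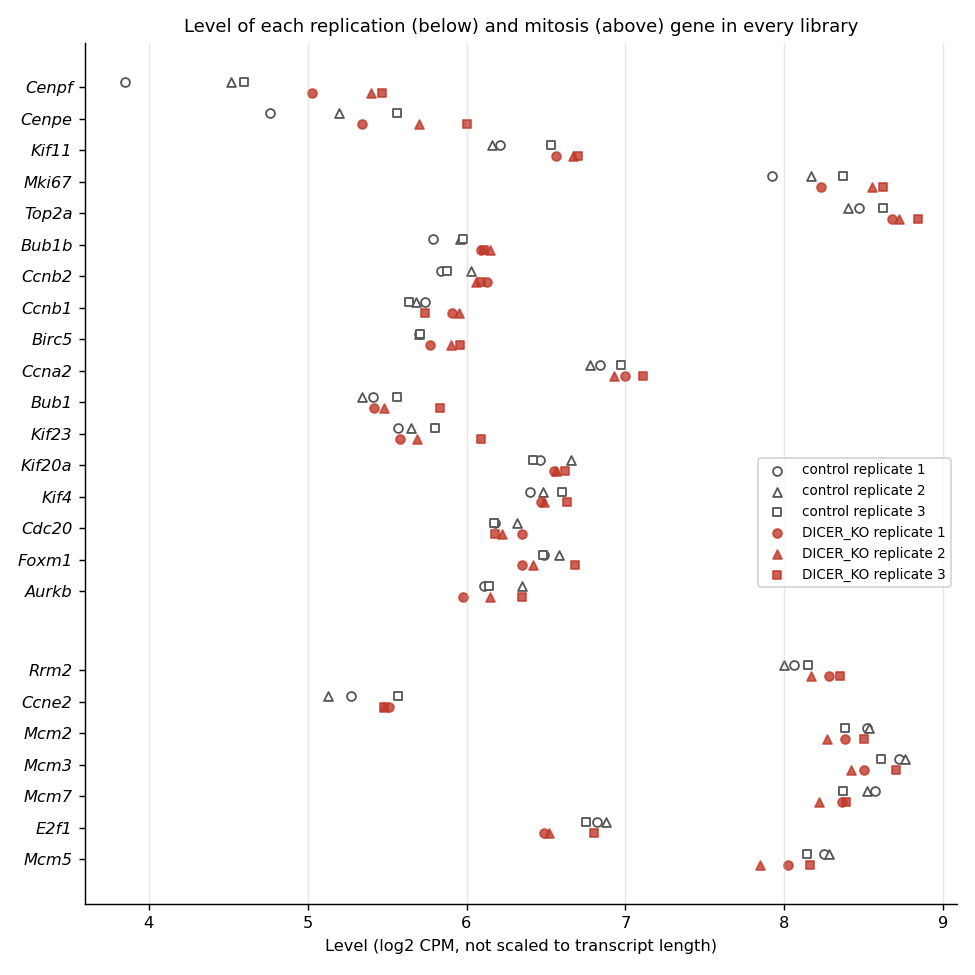
Level of each gene in each library (log2 CPM, not scaled to transcript length), with controls as open and DICER_KO libraries as filled symbols. The Cenpf points of the groups do not overlap, while for most MCM genes the DICER_KO libraries 1 and 2 lie lowest and replicate 3 lies among the controls.

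Among replication genes, those of the MCM helicase leaned lower. Mcm2 through Mcm7 encode the subunits of the ring that unwinds DNA at the fork. Mcm5 stood at 8.25, 8.28 and 8.14 log2 CPM in controls 1 to 3 and at 8.02, 7.85 and 8.16 in DICER_KO replicates 1 to 3. DICER_KO replicates 1 and 2 lay below every control, and replicate 3 lay above the lowest control, so the groups overlapped. Its difference was -0.22 (SE 0.11, 95% interval -0.46 to 0.03, limma adjusted p = 0.364). Mcm5 fell by 0.29 without DICER_KO replicate 3, with an adjusted p that lay just under the threshold and rounds to 0.05.

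Mcm3 stood at 8.72, 8.76 and 8.61 in controls and at 8.50, 8.42 and 8.70 in DICER_KO, with the same library out of step. The difference was -0.16 (95% interval -0.41 to 0.09), and -0.24 without DICER_KO replicate 3 (limma adjusted p = 0.0886). Mcm7, whose transcript holds the hairpins of Mir25, Mir93 and Mir106b in the annotation, stood at 8.57, 8.52 and 8.37 in controls and at 8.36, 8.22 and 8.39 in DICER_KO. The groups of Mcm7 overlapped only through DICER_KO replicate 3, which lay 0.02 above control replicate 3. The difference of Mcm7 was -0.16 (95% interval -0.40 to 0.07). Mcm2 differed least of the helicase genes, at 8.52, 8.53 and 8.38 in controls and 8.38, 8.27 and 8.50 in DICER_KO, with a difference of -0.09 (95% interval -0.33 to 0.14). None of these intervals excludes 0, and none excludes a fall to about 0.8 of the control level: their lower ends were folds of 0.726 (Mcm5), 0.753 (Mcm3), 0.759 (Mcm7) and 0.795 (Mcm2).

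E2f1, the transcription factor that drives S-phase genes, stood at 6.82, 6.88 and 6.75 in controls and at 6.49, 6.52 and 6.80 in DICER_KO. Again DICER_KO replicates 1 and 2 were below every control and replicate 3 was among them. The difference was -0.22 (SE 0.11, limma adjusted p = 0.365) with all libraries, and E2f1 fell by 0.31 without DICER_KO replicate 3 (adjusted p = 0.0311). Rrm2, the regulated subunit of ribonucleotide reductase that makes deoxyribonucleotides, pointed the other way. It stood at 8.06, 8.0 and 8.15 in controls and at 8.28, 8.17 and 8.35 in DICER_KO, so every DICER_KO library lay above every control. Its difference was 0.20 (95% interval -0.03 to 0.42, limma adjusted p = 0.368). Ccne2, a cyclin E that partners Cdk2 at S-phase entry, stood at 5.27, 5.13 and 5.57 in controls and at 5.51, 5.48 and 5.48 in DICER_KO. The highest of all 6 Ccne2 values was a control, and the difference was 0.16 (95% interval -0.11 to 0.44). With the GC trend removed it was -0.14.

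Promoters are shown because the E2F and CHR matches described above as background fell differently on the classes. RefSeq windows of the build GRCm38.p6, from 250 bases before to 50 bases after an annotated start, were found for 19 of the 24 genes, 6 for replication and 13 for mitosis. Mcm7 has 2 windows, so replication genes have 7 and mitosis genes 13. An E2F match (TTTCCCGC, TTTCGCGC, TTTGCCGC or TTTGGCGC on either strand) was in 3 of the 7 replication windows (1 each of Mcm3, Mcm5 and Mcm7), in 0 of the 13 mitosis windows and in 2.26% of all 32851 windows. The E2f1 window and window 2 of Mcm7 lie wholly inside the annotated genes, so neither covers the outermost start. Both count among the replication windows without an E2F match. Mcm5 and Mcm7 were picked, after the values were seen, as examples with a match. Capitals mark every E2F, CHR (TTTGAA or TTCGAA) and CCAAT match on either strand. The E2F matches of Mcm5 overlap each other, and the later E2F match of Mcm7 overlaps a CCAAT. The Mcm5 window is chr8:75109259-75109558 on the plus strand and the Mcm7 window is chr5:138171834-138172133 on the minus strand.
Mcm5: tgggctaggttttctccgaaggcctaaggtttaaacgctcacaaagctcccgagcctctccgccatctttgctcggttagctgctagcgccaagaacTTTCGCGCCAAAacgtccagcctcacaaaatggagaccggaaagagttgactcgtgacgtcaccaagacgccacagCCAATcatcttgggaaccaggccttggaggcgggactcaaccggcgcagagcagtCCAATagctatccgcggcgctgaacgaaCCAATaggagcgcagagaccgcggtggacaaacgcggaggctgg
Mcm7: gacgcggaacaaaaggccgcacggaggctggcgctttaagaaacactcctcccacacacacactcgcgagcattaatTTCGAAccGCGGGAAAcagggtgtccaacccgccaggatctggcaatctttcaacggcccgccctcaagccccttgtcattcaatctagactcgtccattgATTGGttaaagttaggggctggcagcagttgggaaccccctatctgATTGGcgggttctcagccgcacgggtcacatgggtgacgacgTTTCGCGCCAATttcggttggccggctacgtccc
In Mcm5 the E2F matches begin at -153 and -149 relative to the start. These are matches of letters in a window, and binding was not measured.

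Among mitosis genes, Cenpf stood out. Cenpf, a large protein of the kinetochore corona (gene on chromosome 1, 189640606 to 189688107), stood at 3.85, 4.52 and 4.60 log2 CPM in controls 1 to 3 and at 5.03, 5.40 and 5.47 in DICER_KO replicates 1 to 3. Every DICER_KO library was above every control, and control replicate 1 was lowest. The difference was 0.98 (SE 0.20), a fold of 1.98 with a 95% interval of 1.46 to 2.67. It missed the threshold with all 6 libraries (limma adjusted p = 0.0718, unadjusted p = 0.000464). Cenpf rose by 0.90 without DICER_KO replicate 3 (SE 0.18, adjusted p = 0.00301).

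Cenpe, the kinesin that carries chromosomes along spindle microtubules to the metaphase plate, stood at 4.76, 5.20 and 5.56 in controls and at 5.34, 5.70 and 6.00 in DICER_KO. DICER_KO replicate 1 lay below control replicate 3, so the groups overlapped. The difference was 0.51 (SE 0.21, limma adjusted p = 0.288). Kif11, the motor that pushes spindle poles apart, stood at 6.21, 6.16 and 6.53 in controls and at 6.56, 6.67 and 6.70 in DICER_KO. The Kif11 groups did not overlap, with 0.03 between the highest control and the lowest DICER_KO library. Its difference was 0.35 (SE 0.12, 95% interval 0.08 to 0.61, limma adjusted p = 0.228), and 0.32 without DICER_KO replicate 3 (adjusted p = 0.0666).

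Promoter windows of Cenpf (chr1:189688037-189688336, minus strand) and Kif11 (chr19:37376132-37376431, plus strand) are shown because 10 of the 13 mitosis windows hold both a CHR and a CCAAT match, as do 2 of the 7 replication windows and 7.52% of all windows. They were picked, after the values were seen, as the mitosis genes with both motifs and the largest differences. Capitals mark the same motifs as above.
Cenpf: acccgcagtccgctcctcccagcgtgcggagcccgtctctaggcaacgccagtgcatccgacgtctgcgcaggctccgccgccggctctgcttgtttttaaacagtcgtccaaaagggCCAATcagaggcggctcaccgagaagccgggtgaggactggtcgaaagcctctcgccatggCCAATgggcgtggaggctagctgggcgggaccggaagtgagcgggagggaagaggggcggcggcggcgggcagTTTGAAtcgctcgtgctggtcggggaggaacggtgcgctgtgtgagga
Kif11: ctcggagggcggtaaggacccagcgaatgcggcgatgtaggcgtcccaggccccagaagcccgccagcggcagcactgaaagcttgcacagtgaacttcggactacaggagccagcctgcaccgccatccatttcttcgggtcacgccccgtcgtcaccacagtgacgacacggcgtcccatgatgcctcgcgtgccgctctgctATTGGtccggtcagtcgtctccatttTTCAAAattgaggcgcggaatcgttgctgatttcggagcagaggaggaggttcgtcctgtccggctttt
The CHR match of Cenpf begins 2 bases after the start and its CCAAT matches begin at -132 and -71. In Kif11 both matches are on the other strand, with the CHR at -19 and the CCAAT at -45. A CHR match, with or without CCAAT, was in 10 of 13 mitosis and 2 of 7 replication windows, and in 19.2% of all windows. A CCAAT, with or without CHR, was in 12 of 13 and 6 of 7, and in 37.4% of all.

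The most used proliferation markers leaned the same way as Cenpf by smaller amounts. Mki67, the Ki-67 protein that coats mitotic chromosomes, stood at 7.92, 8.17 and 8.37 in controls and at 8.23, 8.55 and 8.62 in DICER_KO. Its groups overlapped through control replicate 3, and the difference was 0.31 (95% interval -0.01 to 0.63, limma adjusted p = 0.322). Top2a, the topoisomerase that untangles sister chromatids, stood at 8.47, 8.40 and 8.62 in controls and at 8.68, 8.72 and 8.84 in DICER_KO. Its groups did not overlap, and the difference was 0.25 (95% interval 0.01 to 0.49, adjusted p = 0.298).

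The mitotic cyclins differed by 0.15 to 0.18. Ccnb1, the cyclin B that activates the mitotic kinase, stood at 5.74, 5.68 and 5.64 in controls and at 5.91, 5.95 and 5.74 in DICER_KO, where replicate 3 was lowest and touched control replicate 1 at this rounding. Ccnb2 stood at 5.84, 6.03 and 5.88 in controls and at 6.13, 6.06 and 6.09 in DICER_KO, without overlap. Ccna2, which acts in both S phase and G2 and was counted with the mitosis genes, ran from 6.78 to 6.97 in controls and from 6.93 to 7.11 in DICER_KO. The 95% intervals of Ccnb1 (-0.05 to 0.41), Ccnb2 (-0.04 to 0.40) and Ccna2 (-0.08 to 0.38) all include 0.

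Genes of the spindle checkpoint and the chromosomal passenger complex varied among themselves. Bub1b, the checkpoint protein that holds back the anaphase-promoting complex, stood at 5.79, 5.96 and 5.98 in controls and at 6.09, 6.15 and 6.11 in DICER_KO, without overlap and with a difference of 0.21 (95% interval -0.02 to 0.43). Birc5, the survivin subunit of the passenger complex, stood at 5.70, 5.70 and 5.71 in controls and at 5.77, 5.90 and 5.96 in DICER_KO, with a difference of 0.17 (95% interval -0.05 to 0.40). Birc5 groups did not overlap either. Its partner in the complex, the kinase Aurkb, differed by -0.04 (95% interval -0.31 to 0.23), from 6.11 to 6.35 in controls and from 5.98 to 6.35 in DICER_KO. The checkpoint kinase Bub1 differed by 0.14, and without DICER_KO replicate 3, its highest library at 5.83, by 0.01. Cdc20, which activates the anaphase-promoting complex, differed by 0.02 (95% interval -0.20 to 0.25).

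The other kinesins and the mitotic transcription factor lay near 0. The cytokinesis motor Kif20a differed by 0.06 and its relative in the midzone, Kif23, by 0.11. Kif23 was highest in DICER_KO replicate 3 at 6.09, where the other 5 libraries ran from 5.57 to 5.80, and its difference without that library was -0.04. Kif4, a chromosome-bound kinesin, differed by 0.04. Foxm1, which drives G2 and M genes, stood at 6.49, 6.58 and 6.48 in controls and at 6.35, 6.42 and 6.68 in DICER_KO, with a difference of -0.03 (95% interval -0.28 to 0.22). Of the 17 mitosis genes, 7 had every DICER_KO library above every control (Top2a, Ccnb1, Ccnb2, Kif11, Bub1b, Cenpf and Birc5). Of the 7 replication genes 1 did (Rrm2), and 0 of the 24 had every DICER_KO library below every control. Over all tested genes the shares were 10.4% above and 9.81% below.

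Measured from the control mean of each gene, the medians of mitosis and replication genes lay farther apart in DICER_KO libraries than in controls. The median deviation from the control mean over the 17 mitosis genes was -0.08, 0.02 and 0.10 in controls 1 to 3 and 0.13, 0.15 and 0.25 in DICER_KO replicates 1 to 3. Over the 7 replication genes it was 0.02, 0.05 and -0.08 in controls and -0.13, -0.27 and 0.00 in DICER_KO. The mitosis median minus the replication median was thus -0.10, -0.03 and 0.18 in controls and 0.26, 0.42 and 0.25 in DICER_KO. The nearest values of the groups were control replicate 3 and DICER_KO replicate 3, 0.07 apart. Control gaps lie near 0 by construction, because deviations are taken from the control mean. The DICER_KO gaps therefore restate, library by library, the class medians given above, and they are not distances between levels. This contrast between the classes was described and not tested. Of the mitosis genes 12, 13 and 16 of 17 lay above their control mean in DICER_KO replicates 1, 2 and 3, against 2, 2 and 4 of 7 replication genes. Over all 10054 tested genes the counts were 5294, 5425 and 5243.

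**Figure D3:**
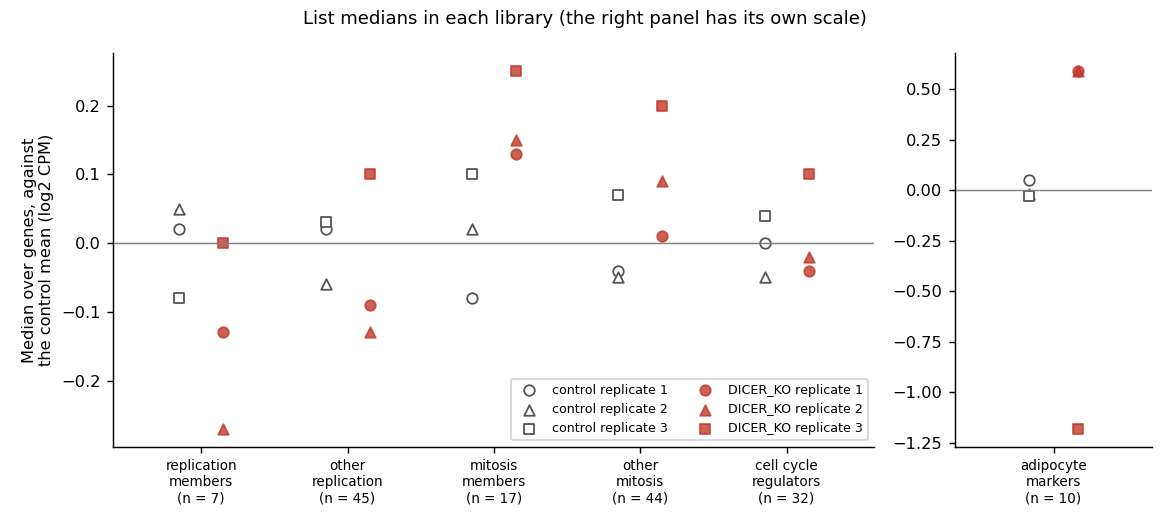
Median over the genes of each list of the deviation from the control mean (log2 CPM), 1 point per library, with adipocyte markers on a scale of their own at the right. Mitosis genes lie at 0.13 to 0.25 in DICER_KO, replication genes at -0.27 to 0.00, and adipocyte markers fall at 0.59, 0.59 and -1.18 in DICER_KO replicates 1 to 3.

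Adipocyte markers were lowest in DICER_KO replicate 3, and the mitosis genes were not. The adipocyte median deviation was 0.59, 0.59 and -1.18 in DICER_KO replicates 1 to 3, and the mitosis median was positive in all 3. Adipoq, the adipocyte hormone adiponectin, stood at 7.67, 7.55 and 7.62 in controls and at 8.71, 8.74 and 6.41 in DICER_KO. Replication genes were closest to the controls in the library with the lowest Adipoq. The collagen gene Col3a1, a fibroblast marker, fell by 1.44 (SE 0.17, limma adjusted p = 0.00856), a call lost with a replicate block (adjusted p = 0.109) and without control replicate 3 (adjusted p = 0.0786). It was the 1 gene called among the 8 tested preadipocyte and fibroblast markers, whose median difference was -0.06, and 0 of the 10 adipocyte markers were called with all 6 libraries. Without DICER_KO replicate 3, 8 of the 10 adipocyte markers were called higher and 0 lower, with a median difference of 0.59. In that fit 3 of the 8 preadipocyte and fibroblast markers were called lower and 0 higher. Over all tested genes it called 12.5% higher and 7.22% lower. Whether the makeup of the cultures has a part in the differences was not tested.

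Transcript GC content moved with the differences. Over the 9628 tested genes with an annotated transcript, Spearman's rho between GC content and the difference was -0.34, and over the 24 cell cycle genes it was -0.75. These points share the same 6 libraries, and the values are descriptions. The GC trend also differed between libraries of 1 group. Spearman's rho between GC content and a library's deviation from the mean of all libraries was 0.32, 0.55 and -0.39 in controls 1 to 3. In DICER_KO replicates 1 to 3 it was -0.23, -0.17 and -0.17. Control replicate 3 thus lay beyond every DICER_KO library, and the controls spread more widely than the groups differed from each other at that end. The median GC content was 52.5% for replication genes, 46.6% for mitosis genes and 50.4% for all. The 2407 genes of lowest GC content had a median difference of 0.15 and the 2407 of highest GC content -0.08. For transcript length rho was 0.02 over all genes and 0.45 over the 24. E2f1 has the highest GC content of the 24 at 58.3% and Ccne2 the lowest at 36.3%. With a smooth GC trend removed from each library, the median was -0.13 for replication and 0.09 for mitosis genes, and Cenpf differed by 0.87 (limma adjusted p = 0.121). The mitosis median minus the replication median was then -0.09, 0.05 and 0.07 in controls and 0.13, 0.35 and 0.18 in DICER_KO. With the trend removed and without DICER_KO replicate 3, limma called 1 gene higher, Cenpf (0.77, adjusted p = 0.00925), where 15.5% of all genes were called higher. It called 3 genes lower, Mcm5 (-0.28, adjusted p = 0.0154), E2f1 (-0.24, adjusted p = 0.0196) and Mcm3 (-0.22, adjusted p = 0.0304), where 12.2% of all genes were called lower.

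**Figure D4:**
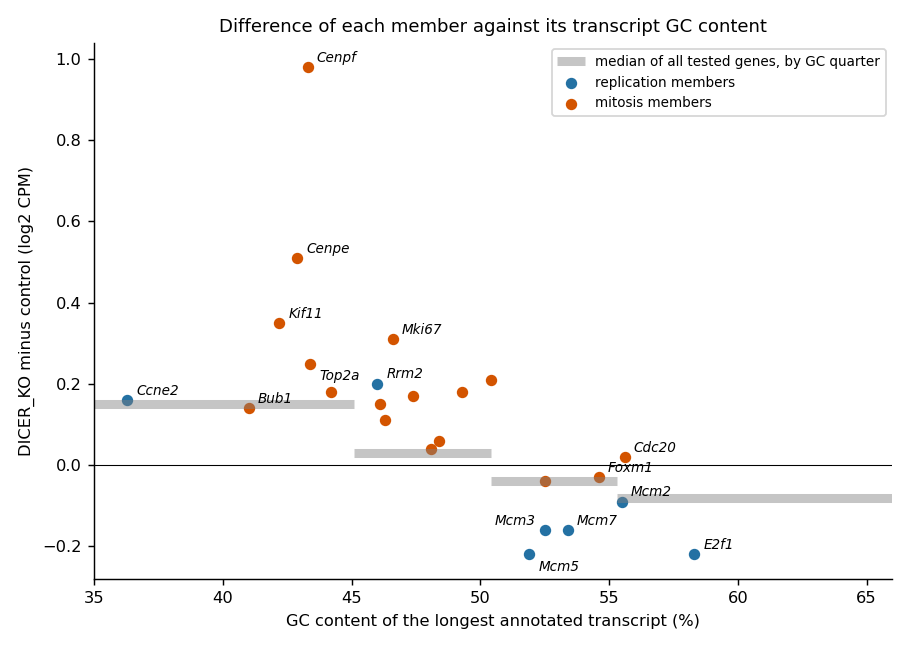
Difference of each of the 24 genes (log2 CPM) against the GC content of its longest annotated protein-coding transcript (%), with grey bars for the median difference of all tested genes in 4 GC classes of 2407 genes. Replication genes other than Ccne2 and Rrm2 lie at the GC-rich right side below 0, and Cenpf at 43.3% GC lies well above the grey bar of its class at 0.15.

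Further genes of the same machinery were read in the same way. Of 57 further replication genes (origin licensing, polymerases, clamp loading and repair at the fork), 45 were tested, with a median difference of -0.05, 17 positive and 28 negative. That median rested on single libraries: it was -0.01 without DICER_KO replicate 1, -0.00 without replicate 2, -0.11 without replicate 3, and -0.02 without control replicate 1. With the GC trend removed it was -0.10 (10 positive, 35 negative), and -0.17 (8 positive, 37 negative) with DICER_KO replicate 3 also left out. With all 6 libraries 0 were called either way, and at an unadjusted p under 0.05 1 was higher and 3 lower, near or below the 8.49% and 7.35% of all genes. Leaving out DICER_KO replicate 3, the unadjusted counts were 1 higher and 12 lower, beside 20.1% and 14.9% of all genes. The 3 with the smallest p with all 6 libraries were factors of origin firing and licensing. Mcm10, which helps start the fork, stood at 5.85, 5.63 and 5.66 in controls and at 5.19, 5.14 and 5.64 in DICER_KO (difference -0.39, limma adjusted p = 0.252). Cdt1, which loads the helicase, differed by -0.29 and its partner Cdc6 by -0.27. Mcm10 fell by 0.55 without DICER_KO replicate 3 (adjusted p = 0.00236), Cdc6 by 0.37 (adjusted p = 0.0185) and Cdt1 by 0.34 (adjusted p = 0.0376). In that fit 1 of the 45 was called higher and 5 lower, beside 12.5% and 7.22% of all genes.

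Of 57 further mitosis genes 44 were tested, with a median difference of 0.12, 34 positive and 10 negative. The median was 0.06 without DICER_KO replicate 3, and -0.03 (21 positive, 23 negative) with the GC trend also removed. With all 6 libraries 0 were called, and at an unadjusted p under 0.05 12 were higher and 0 lower, beside 8.49% and 7.35% of all genes. Leaving out DICER_KO replicate 3, the unadjusted counts were 14 higher and 5 lower, beside 20.1% and 14.9% of all genes. In that fit 4 were called higher and 2 lower at an adjusted p under 0.05, shares below the 12.5% and 7.22% of all genes. Kif20b, a kinesin of cytokinesis, stood at 4.23, 4.46 and 4.94 in controls and at 5.10, 5.43 and 5.60 in DICER_KO, without overlap (difference 0.84, SE 0.19, limma adjusted p = 0.0906). Knl1, the kinetochore scaffold that recruits Bub1, stood at 3.81, 4.38 and 4.78 in controls and at 4.82, 5.33 and 5.39 in DICER_KO (difference 0.86, adjusted p = 0.133). Smc4, a condensin subunit whose transcript holds the hairpins of Mir15b and Mir16-2 in the annotation, stood at 6.83, 6.85 and 7.52 in controls and at 7.53, 7.70 and 7.84 in DICER_KO (difference 0.62, adjusted p = 0.154). In all 3 genes control replicate 3 was the highest control and DICER_KO replicate 3 the highest library. Their transcripts have 37.7% (Knl1), 39.4% (Kif20b) and 40.2% (Smc4) GC. With the GC trend removed the differences were 0.59, 0.62 and 0.43 in the same order.

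Of 36 regulators that stand above both classes (retinoblastoma family, E2F family, D cyclins and Cdk inhibitors), 32 were tested, with a median of 0.01. None was called with all 6 libraries, and at an unadjusted p under 0.05 6 were higher and 2 lower, beside 8.49% and 7.35% of all genes. Leaving out DICER_KO replicate 3, 4 were called higher and 3 lower, near the 12.5% and 7.22% of all genes. The unadjusted counts in that fit were 7 higher and 6 lower, beside 20.1% and 14.9% of all genes. Rb1, the retinoblastoma protein that restrains E2F factors, stood at 5.19, 5.03 and 5.45 in controls and at 5.83, 5.87 and 5.46 in DICER_KO, just without overlap (difference 0.50, limma adjusted p = 0.168). Rb1 rose by 0.63 without DICER_KO replicate 3 (adjusted p = 0.00228). The D cyclins release that restraint with their kinases, and none of the 3 passed the test with all 6 libraries. Ccnd2 stood at 8.62, 8.71 and 8.67 in controls and at 8.93, 9.02 and 8.87 in DICER_KO (difference 0.27, adjusted p = 0.261). Ccnd1 stood at 4.55, 4.62 and 4.63 in controls and at 4.40, 4.03 and 4.33 in DICER_KO (difference -0.35, adjusted p = 0.258). The groups of Ccnd1 and Ccnd2 did not overlap, and those of Ccnd3 did (difference -0.09, adjusted p = 0.645). The adjusted p without DICER_KO replicate 3 was 0.0343 for Ccnd2 and 0.0472 for Ccnd1.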

How the data were processed

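Poly(A) libraries of 3 control and 3 DICER_KO cultures were compared. The deposited values are log2 CPM, 1 column per library and 0 columns of other samples, and the authors' tools were edgeR, featureCounts, HISAT2, Trimmomatic and FastQC with the builds mm10 and GRCm38, per the submitters' processing notes, which give no versions or roles. Strand use in counting is not given in the sources used here, so reads of antisense partners may be mixed in. The values equal whole reads plus 0.5 over an implied library size of 17594568 to 42331787. Entrez IDs were matched to RefSeq symbols of GRCm38.p6 (13682 of 13734 matched). Genes that reached 1 CPM in 3 or more libraries were tested with limma 3.58.1 (R 4.3.3) with an intensity trend, with the group as the only term, and Benjamini-Hochberg adjustment over all 10054 genes at a threshold of 0.05. Differences are DICER_KO minus control in log2 CPM and understate changes of low genes. Lengths and GC content are of the longest protein-coding GENCODE M21 transcript, or the longest of any type where there was none. Such a transcript was found for 9628 of the tested genes. The GC trend was a lowess curve with a span of 0.3, fitted to each library's deviations from the gene means. Levels per kb subtract log2 of the transcript length. The members and gene lists were chosen with earlier results of these data known. The genes named are all members, Dicer1, the 3 genes with the smallest p in each other list (and any past the threshold, of which there were 0) and markers; of these Fabp4 differed by 0.26, Col1a1 by -0.70, and Ptprc and Adgre1 are not analysed here. Pairs of libraries differed by a chi-square of at least 8.39 per degree of freedom, so none was a copy. The fit was tested on simulated data. Alternatives changed the filter, scaling, pseudocount, trend, test, replicate term, GC and length trends and libraries. Tables and plots were made in Python 3.11.15 with pandas 2.3.3, numpy 2.4.6 and matplotlib 3.10.9.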

Additional observations from a re-analysis of the deposited data

How the results depend on the processing

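Depth was at least 338 reads per gene and library among the 24 genes. Calls over all genes went from 15 higher and 29 lower to 1257 and 726 without it. Over 432 results of single genes under alternatives, 406 kept their direction and side of the threshold, 9 gained a call and 17 turned in sign. With all 6 libraries 0 of the 24 genes were called, so no call could be lost. Every kept result is thus a gene that stayed uncalled. The count of member genes called higher was 0 with all libraries, 1 with no filter on low values, 1 without DICER_KO replicate 3 and 1 with the GC trend also removed. Each time the gene was Cenpf. Leaving out 1 library in turn gave 0 to 1 higher and 0 to 2 lower, and 3 lower with the GC trend removed and without DICER_KO replicate 3. Cenpf passed with no filter (adjusted p = 0.0469), without DICER_KO replicate 1 (1.12, adjusted p = 0.0337) and without DICER_KO replicate 3 (0.90, adjusted p = 0.00301). The lists of further replication genes, further mitosis genes and regulators had 0 calls with all libraries. Without DICER_KO replicate 3 they had 1 higher and 5 lower (replication), 4 and 2 (mitosis) and 4 and 3 (regulators), and with the GC trend also removed 2 and 13, 6 and 5, and 4 and 7. These are counts among 45, 44 and 32 tested genes. Over all genes the shares were 12.5% higher and 7.22% lower without DICER_KO replicate 3. With the GC trend also removed they were 15.5% and 12.2%. Leaving out 1 library in turn gave between 0 and the counts without DICER_KO replicate 3. The mitosis median was 0.17 with all libraries, 0.09 with the GC trend removed and 0.09 with that and without DICER_KO replicate 3.

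Some signs turned. With the GC trend removed Ccne2 was -0.14, Bub1 -0.03 and Foxm1 0.00. With that and without DICER_KO replicate 3, Ccne2 was -0.13, Kif23 -0.10, Kif4 -0.05 and Bub1 -0.16. Without DICER_KO replicate 3 alone Kif23 was -0.04 and Kif4 -0.02. Kif4 was -0.01 without control replicate 1, Aurkb 0.04 without control replicate 2 and 0.05 without DICER_KO replicate 1. Cdc20 was -0.01 with library medians set equal and with quantile normalization, -0.00 without control replicate 3 and -0.03 without DICER_KO replicate 1, and Foxm1 was 0.03 without that library. Adipoq was -0.04 and -0.05, and Fabp4 -0.06 and -0.06, without DICER_KO replicates 1 and 2. Leaving out 1 library in turn gave -0.04 to 0.22 for Kif23, -0.03 to 0.07 for Cdc20, -0.05 to 1.11 for Adipoq and -0.06 to 0.90 for Fabp4. The cause was not tested. Dicer1 missed the threshold without an intensity trend (adjusted p = 0.0635), with a replicate block (0.119) and when any library but DICER_KO replicate 3 was left out (0.0568 to 0.147).

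Deviations of libraries with the same number correlated at 0.20, -0.01 and -0.08 over all tested genes, and those with different numbers at -0.23 to 0.17. With 3 libraries per group, these values cannot decide whether the numbers pair the samples. Some mitosis genes, such as Cenpf and Cenpe, rose with the number in both groups, and others, such as Ccnb1, did not. The widest limma interval went from 0.93 to 0.56 among mitosis genes with a replicate block, and from 0.55 to 0.57 among replication genes. With a replicate block 0 member genes were called higher and 0 lower, and 0 and 2 of all genes.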
